A study of Homo sapiens with 14 samples.

Results

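The genes described here are 10 contractile genes regulated by serum response factor (SRF): CNN1, CNN2, CALD1, TAGLN, ACTA2, ACTG2, MYL9, TPM1, TPM2 and TGFB1I1. They were matched by gene symbol, and all 10 were found among the 26760 entries of the A549 table and the 26732 genes of the H1792 table. The list was chosen by people who already knew results of these comparisons, CNN1 in H1792 among them. Its fold changes are therefore given as a description, with their standard errors and without p-values. A549 and H1792 are established human lung adenocarcinoma lines. RNA was sequenced from cells given 0.1 µM AMG900, an inhibitor of all aurora kinases, or DMSO, its solvent, for 48 h, with 4 AMG900 and 4 DMSO libraries of A549 and 3 AMG900 and 3 DMSO libraries of H1792. A549 was grown in DMEM and H1792 in RPMI 1640, so line, medium and count table cannot be told apart in any comparison between the lines. Replicates are numbered libraries of a single line, and the labels do not say what separates them, so the errors below measure the spread between libraries, which may be technical. The protocol text gives 3 replicates per treatment, and all 4 labelled libraries per A549 group were used.

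SRF is a DNA-binding protein that recognizes a short element called the CArG box in the promoters of muscle and cytoskeletal genes. Its cofactors of the myocardin family, MKL1 and MKL2, are held in the cytoplasm by monomeric actin and reach the nucleus when actin is drawn into filaments. Myocardin itself is largely restricted to smooth and cardiac muscle. The contractile targets are best known as smooth muscle and myofibroblast genes, and some of them, tropomyosins above all, are also used by the stress fibres of epithelial cells.

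By role, CNN1 and CNN2 are calponins and CALD1 is caldesmon, actin-binding proteins that restrain myosin. TAGLN is transgelin, an actin-bundling protein. ACTA2 and ACTG2 are the smooth muscle alpha- and gamma-actins, and MYL9 is a regulatory light chain of myosin. TPM1 and TPM2 are tropomyosins, which lie along the actin filament, and TGFB1I1 (Hic-5) is a LIM-domain adaptor of focal adhesions.

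Promoter sequences are shown because the CArG box is the element that SRF binds. RefSeq promoter windows of 300 bases, 250 of them before the annotated start, were on hand for 8 of the 10 genes, in 15 windows of build GRCh38.p14, and not for TAGLN or MYL9. Each stretch below was placed on GRCh37 by exact match and is written in the direction of transcription, without annotated exon bases except where a box reaches into one. Capitals mark a CArG box or a run that differs from it by 1 letter.
ACTA2 (chr10:90712531-90712680, minus strand): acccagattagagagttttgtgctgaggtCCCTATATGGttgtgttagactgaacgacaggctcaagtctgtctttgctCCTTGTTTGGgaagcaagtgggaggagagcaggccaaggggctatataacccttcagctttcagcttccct
ACTG2 (chr2:74119922-74120071, plus strand): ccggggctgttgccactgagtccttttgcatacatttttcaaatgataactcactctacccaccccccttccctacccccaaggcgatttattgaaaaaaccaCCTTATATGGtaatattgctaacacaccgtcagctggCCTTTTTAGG
CNN2 (chr19:1026435-1026584, plus strand): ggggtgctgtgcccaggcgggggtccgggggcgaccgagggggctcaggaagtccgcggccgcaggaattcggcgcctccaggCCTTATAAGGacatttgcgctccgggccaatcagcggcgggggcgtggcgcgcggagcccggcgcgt
CNN1 (chr19:11649432-11649581, plus strand): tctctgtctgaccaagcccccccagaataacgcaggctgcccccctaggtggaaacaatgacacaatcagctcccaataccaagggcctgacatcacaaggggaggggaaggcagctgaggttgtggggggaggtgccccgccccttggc

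The CArG box was searched on both strands, which its symmetric pattern makes equal. It was found in windows of 3 of the 8 genes, ACTG2, CNN2 and TGFB1I1, and among all 27305 genes with a window 1.60% had one. ACTG2 had 2 boxes, CCTTATATGG and CCTTTTTAGG, beginning 110 and 73 bases before its start, and CNN2 had CCTTATAAGG beginning 89 bases before its start. TGFB1I1 had CCAAATTTGG at chr16:31484475-31484484, 51 bases before the start of 1 of its transcripts, in sequence that other transcripts use as exon. Allowing 1 letter off added ACTA2 and CALD1, which made 5 of 8 genes, against 22.3% of all genes. The pair in ACTA2 are CCCTATATGG and CCTTGTTTGG, beginning 121 and 71 bases before the start. No run within 1 letter of a CArG box lay in the windows of CNN1, TPM1 or TPM2, which says only that it is not in those windows. The genes were listed as SRF targets, and the 8 genes had 15 windows where all 27305 genes had 35116. Nothing is therefore read from their shares beside those of all genes. A match is a description of letters and not evidence of binding in these cells.

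Total counts per library ran from 4254644 to 18962883 in A549 and from 42760874 to 79902934 in H1792. Among the members, the smallest library, A549 DMSO replicate 1, stood apart for TPM2 and ACTG2. Outside the list it also lay apart from the other A549 DMSO libraries, high for KRT8 and RHOA and low for ELK1, for example. The epithelial markers EPCAM, CDH1, KRT7, KRT8, KRT18 and KRT19 were all detected in each group, meaning any read in any library. Their summed levels were 7973 to 12291 CPM (counts scaled to a common library size) in A549 and 1540 to 1973 CPM in H1792. Most of each sum came from KRT7, KRT8 and KRT18. EPCAM stood at only 0.091 to 0.539 CPM in A549 and 3.26 to 3.83 CPM in H1792. CDH1 stood at 15.7 to 44.8 CPM in A549 and only 0.570 to 1.04 CPM in H1792. The lung lineage markers NKX2-1, SFTPB, SFTPC and NAPSA summed to between 0.185 and 2.004 CPM in each library. The 5 smooth muscle markers outside the list, MYH11, DES, LMOD1, SYNPO2 and MYOCD, summed to between 3.68 and 9.92 CPM in A549 and between 2.28 and 3.15 CPM in H1792. MYOCD was at 0 in all 3 H1792 AMG900 libraries. The leukocyte marker PTPRC reached at most 4 counts in a library. Of the endothelial markers, PECAM1 stood at 3.59 to 5.42 CPM with DMSO and 7.15 to 8.13 CPM with AMG900 in H1792, and CDH5 at 0.0459 to 0.103 and 0.283 to 0.467 CPM, both without overlap. VWF had 517 counts in H1792 DMSO replicate 2 and 64 in A549 DMSO replicate 2, against 43 or fewer in each other library. In A549, PECAM1 and CDH5 had at most 9 and 2 counts. The part of these markers in the results on H1792 was not tested.

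Levels between genes are compared only per kilobase of transcript. In A549 given DMSO, the tropomyosins led with means of 811 CPM per kb for TPM2 and 732 for TPM1, and their libraries overlapped. CNN2 followed at 115 CPM per kb, then TGFB1I1 at 41.7 and ACTA2 at 39.8, which overlapped. CALD1 was at 27.5 and TAGLN at 15.2 CPM per kb. ACTG2 and MYL9 stood below 1 CPM per kb and overlapped, and CNN1 was last at 0.0778. In H1792 given DMSO, TPM2 again led with 742 CPM per kb, ahead of TPM1 at 157 and CNN2 at 149, which overlapped. CALD1 (16.1), TGFB1I1 (14.8) and ACTA2 (11.5) came next, with overlap between CALD1 and TGFB1I1 only. MYL9 was at 2.63 CPM per kb, and TAGLN (0.380), ACTG2 (0.210) and CNN1 (0.191) closed the order, each overlapping the next. With AMG900, ACTA2 in A549 stood next after the tropomyosins, at 143 CPM per kb, where its libraries overlapped those of CNN2 at 132. With AMG900 in H1792, CNN1 was at 2.43 CPM per kb, below MYL9 at 5.62 and above TAGLN at 0.751.

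**Figure D1:**
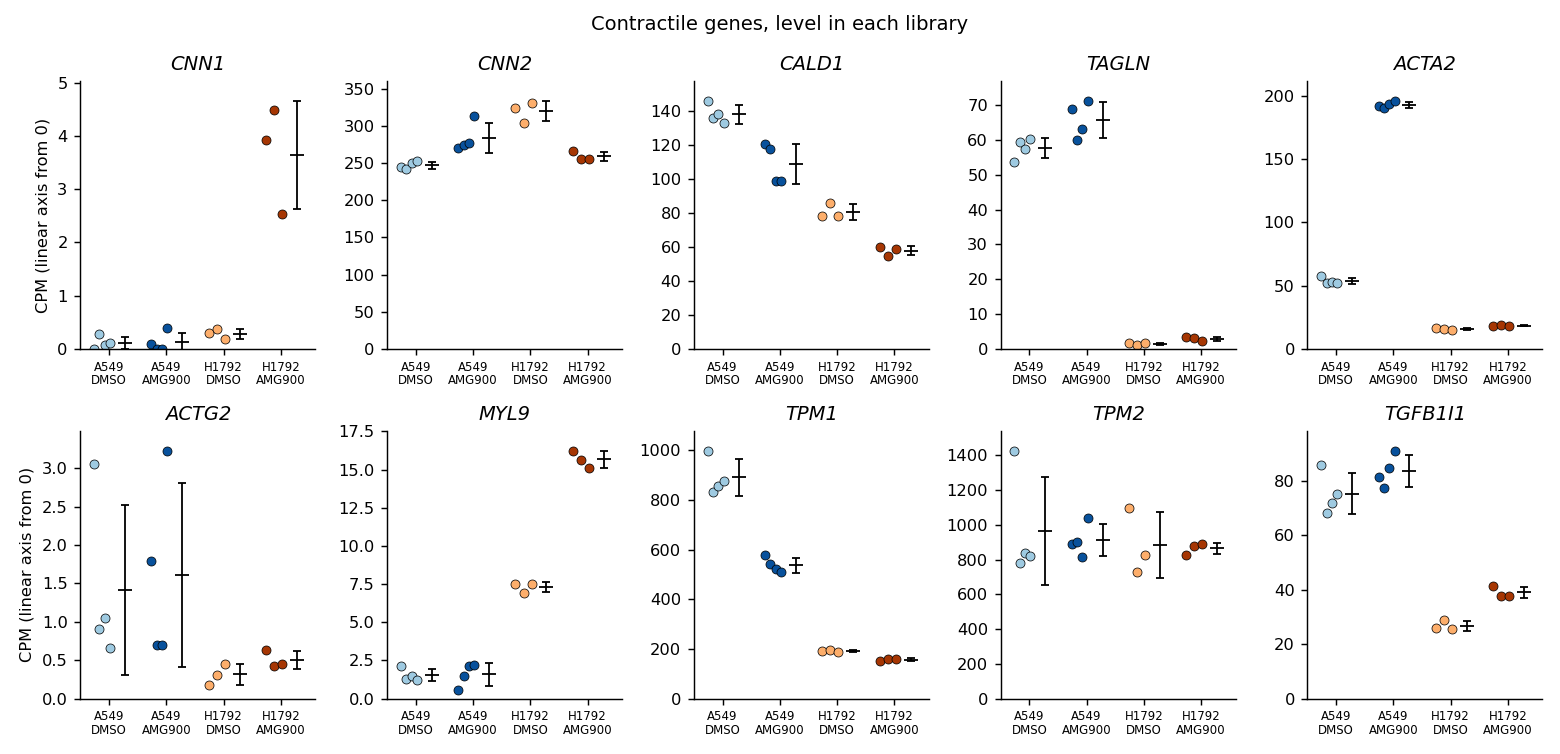
Level of each of the 10 contractile genes in CPM (linear axis from 0, a scale of its own in each panel); each point is 1 library, and the bar is the mean ± SD of its group (4 libraries per A549 group, 3 per H1792 group), cut at 0. ACTA2 separates the A549 groups (51.8 to 57.3 against 190 to 196 CPM), CNN1 separates the H1792 groups (at most 0.369 against at least 2.52 CPM), and A549 DMSO replicate 1 lies high for TPM2 and ACTG2.

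The first question was which contractile genes differed after AMG900 in A549. ACTA2, smooth muscle alpha-actin, was higher, and the tropomyosin TPM1 and caldesmon CALD1 were lower. The other 6 tested genes did not pass the threshold, and CNN1 had too few counts for a test. With edgeR and an FDR of 0.01, 1 of 9 tested members was called higher, where 17.2% of all 13174 genes tested were, and 2 were called lower, where 17.8% of all genes were. The median log2 fold change of the 9 was 0.16, and over all genes it was −0.01. The members were picked with this comparison in view, so nothing is read from these counts.

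ACTA2 stood at 57.3, 51.8, 53.1 and 52.4 CPM in the 4 A549 DMSO libraries and at 192, 190, 194 and 196 CPM in the 4 AMG900 libraries. The groups lay far apart, and the spread within each was small. The log2 fold change was 1.85 ± 0.07 (SE), a 3.61-fold higher level, above 98.5% of the genes tested. ACTA2 shares 1638 of its 5628 exonic bases with ACTA2-AS1, a lncRNA on the opposite strand, and 380 with FAS, the death receptor gene. Whether reads were counted by strand is not given in the sources used here, and reads from both strands cannot be told apart without it. ACTA2-AS1 had 9, 11, 13 and 24 counts with DMSO and 25, 77, 49 and 125 with AMG900 (log2 fold change 1.85 ± 0.42, edgeR adjusted p = 0.00211), beside 244 to 883 and 2031 to 3590 counts of ACTA2 itself. The estimate for FAS was 0.38 ± 0.16 (edgeR adjusted p = 0.0648).

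TPM1 stood at 999, 833, 856 and 875 CPM with DMSO and at 578, 540, 522 and 508 CPM with AMG900. All 4 AMG900 libraries lay below all 4 DMSO libraries, and DMSO replicate 1 was the highest. The log2 fold change was −0.73 ± 0.07, and −0.67 without that library. TPM1 shares 2645 of its 14700 exonic bases with TPM1-AS on the opposite strand. CALD1 stood at 146, 135, 138 and 133 CPM with DMSO and at 120, 117, 98.8 and 98.5 CPM with AMG900, again without overlap. Its log2 fold change was −0.34 ± 0.08. The call on CALD1 was lost without DMSO replicate 3 (−0.34), AMG900 replicate 3 (−0.30) or AMG900 replicate 4 (−0.29).

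CNN2 stood between 241 and 252 CPM with DMSO and between 270 and 313 CPM with AMG900. Its groups did not overlap, yet the log2 fold change of 0.20 ± 0.07 was not called at the FDR of 0.01. TAGLN ranged from 53.6 to 60.2 CPM with DMSO and from 60.0 to 71.2 with AMG900 (0.18 ± 0.08), and TGFB1I1 from 68.1 to 85.8 and from 77.5 to 91.1 (0.16 ± 0.09). Both overlapped between the groups and neither was called. TPM2 was at 1427, 778, 836 and 820 CPM with DMSO and at 889, 899, 818 and 1039 CPM with AMG900. Its log2 fold change was −0.08 ± 0.15, and 0.17 without DMSO replicate 1, the single high library. MYL9 (6 to 39 counts per library, 0.16 ± 0.39) and ACTG2 (10 to 50 counts, 0.43 ± 0.57) were too low for a difference of this size to be detected at this depth. CNN1 had 0, 3, 1 and 2 counts with DMSO and 1, 0, 0 and 6 with AMG900, so no fold is given.

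The same comparison was made in H1792. The calponin CNN1, the myosin light chain MYL9, transgelin TAGLN and the adaptor TGFB1I1 were higher with AMG900, while CNN2, CALD1 and TPM1 were lower. All 10 members were tested: 4 were called higher, where 16.2% of the 15017 genes tested were, and 3 lower, where 18.8% were. Their median log2 fold change was 0.39, and that over all genes was 0.01. As in A549, nothing is read from the counts.

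CNN1 had 20, 18 and 8 counts in the 3 H1792 DMSO libraries and 305, 225 and 146 counts in the 3 AMG900 libraries. In CPM these were 0.306, 0.369 and 0.182 against 3.92, 4.49 and 2.52. The groups lay far apart although CNN1 remained a low gene, the lowest of the 10 per kilobase with DMSO. The log2 fold change was 3.64 ± 0.30, or 12.5-fold, above 99.9% of the genes tested. Leaving out each library in turn gave 3.43 to 3.85.

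MYL9 stood at 7.51, 6.94 and 7.50 CPM with DMSO and at 16.2, 15.6 and 15.1 CPM with AMG900. The groups were well separated, with a log2 fold change of 1.10 ± 0.09 (2.14-fold). TAGLN was at 1.70, 1.07 and 1.55 CPM with DMSO and at 3.28, 3.03 and 2.21 CPM with AMG900. Its groups did not overlap but lay closer, and the log2 fold change was 0.98 ± 0.22. The call on TAGLN was lost without AMG900 replicate 1 (0.86), AMG900 replicate 2 (0.93), DMSO replicate 2 (0.80) or DMSO replicate 3 (1.02). TAGLN shares 2233 of its 6550 exonic bases with PCSK7 on the opposite strand, a proprotein convertase gene with an estimate of −0.05 ± 0.06 (edgeR adjusted p = 0.514). TGFB1I1 stood at 25.8, 29.0 and 25.6 CPM with DMSO and at 41.5, 37.7 and 37.8 CPM with AMG900, a log2 fold change of 0.54 ± 0.07.

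CALD1, caldesmon, stood at 77.8, 85.8 and 78.0 CPM with DMSO and at 59.6, 54.8 and 58.9 CPM with AMG900 (log2 fold change −0.48 ± 0.06). CNN2 was at 325, 304 and 330 CPM with DMSO and at 266, 256 and 255 CPM with AMG900 (−0.30 ± 0.05). TPM1 was at 193, 196 and 186 CPM with DMSO and at 151, 160 and 159 CPM with AMG900 (−0.29 ± 0.05). In all 3 genes every AMG900 library lay below every DMSO library. ACTA2 stood between 14.8 and 16.2 CPM with DMSO and between 17.8 and 18.6 CPM with AMG900. Its groups did not overlap, but the log2 fold change of 0.23 ± 0.07 was not called. TPM2 (−0.03 ± 0.12) and ACTG2 (12 to 49 counts per library, 0.71 ± 0.40) overlapped between the groups.

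Across both lines, CALD1 and TPM1 were called lower in each, ACTG2 and TPM2 in neither, and no member was called in opposite directions. The lists of genes called within each line were not tested against each other. Actins have near-identical paralogs and tropomyosins similar ones, so some reads, of actins above all, may have been counted on another family member or not at all.

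GC content moved with the treatment effect over all genes: Spearman's correlation of log2 fold change with transcript GC, across genes, was 0.499 in A549 and 0.481 in H1792. A GC effect of the libraries and an AMG900 effect that goes with GC cannot be told apart here. The correction may therefore also take out part of an AMG900 effect, which was not tested. The members ranged from 41.3% GC (CALD1) to 63.5% (TGFB1I1). A per-library correction for GC content left ACTA2 in A549 at 1.77, CNN1 in H1792 at 3.36, MYL9 in H1792 at 0.80 and TPM1 at −0.80 in A549 and −0.37 in H1792, each still called. It took CALD1 in A549 from −0.34 to 0.03, TGFB1I1 in A549 from 0.16 to −0.27, where it was then called, and TGFB1I1 in H1792 from 0.54 to 0.20, where it was no longer called. TAGLN in H1792 went from 0.98 to 0.77 and was no longer called, and CALD1 in H1792 went from −0.48 to −0.20 and stayed called. With it, 2 members were called higher in H1792 in place of 4, where 2177 of 14373 genes were in place of 2439 of 15017. Signs in A549 also turned for CNN2 (−0.13), TAGLN (−0.05) and MYL9 (−0.21).

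**Figure D2:**
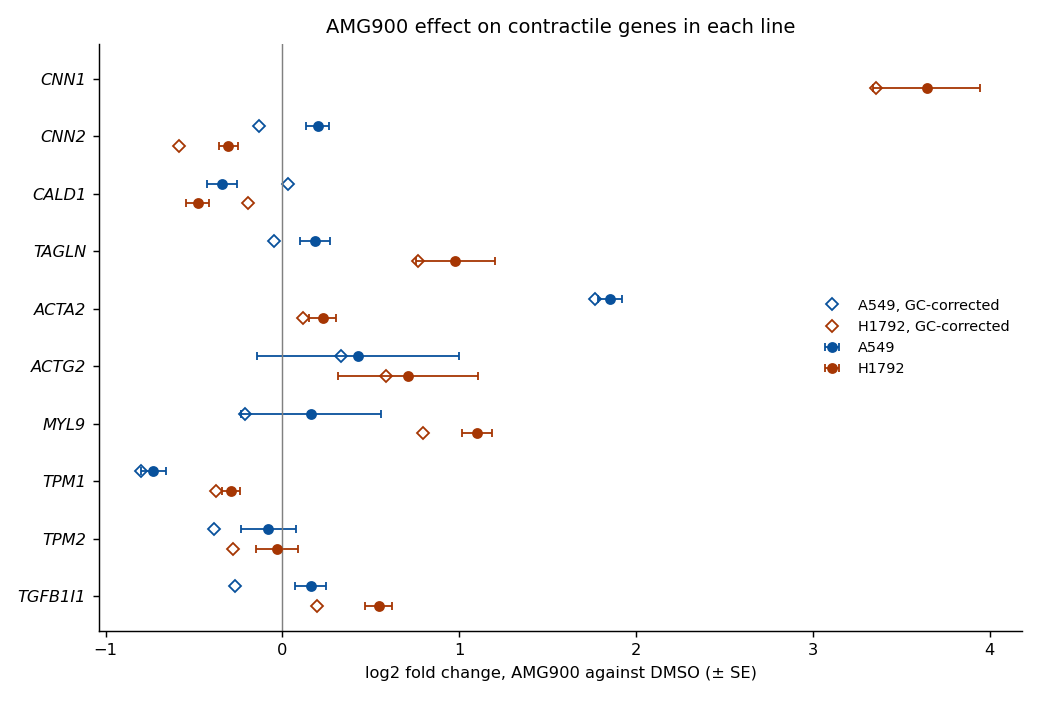
Log2 fold change, AMG900 against DMSO, of the contractile genes in A549 (blue) and H1792 (brown); filled circles with bars are the edgeR estimate ± SE, open diamonds the estimate after GC correction, and CNN1 was not tested in A549. CNN1 in H1792 (3.64) and ACTA2 in A549 (1.85) lie apart from 0 with and without the correction, whereas CALD1 in A549 moves to 0.03.

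The next question was where the lines differed before the inhibitor. Against A549, H1792 given DMSO had far less transgelin and less ACTA2, TPM1, TGFB1I1 and CALD1, and more MYL9 and CNN2. Of the 10 members, 5 were called lower in H1792, where 31.9% of the 14769 genes tested were, and 2 were called higher, where 34.2% were. TAGLN was the most distant, at 53.6 to 60.2 CPM in A549 and 1.07 to 1.70 CPM in H1792 (log2 difference −5.22 ± 0.16). TPM1 differed by −2.12 ± 0.07, ACTA2 by −1.68 ± 0.07, TGFB1I1 by −1.38 ± 0.09 and CALD1 by −0.67 ± 0.08 on the log2 scale. MYL9 went the other way, at 1.25 to 2.11 CPM in A549 and 6.94 to 7.51 CPM in H1792 (2.45 ± 0.24), as did CNN2 (0.47 ± 0.07). TPM2 (−0.02 ± 0.16) was not called, and for CNN1, with 0 to 3 counts per A549 DMSO library, no difference is given. ACTG2, at 10 to 20 counts per DMSO library in both lines, differed by −1.83 ± 0.61 and was not called. It was called without A549 DMSO replicate 4 (−2.10) or without A549 AMG900 replicate 2 (−1.83), 3 (−1.83) or 4 (−1.84), and with DESeq2 (−1.96), total counts (−1.93) or no filter (−1.79).

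The difference of the AMG900 effect between the lines (H1792 minus A549) was estimated as the interaction in a fit over all 14 libraries. The ACTA2 effect was smaller in H1792 by 1.70 ± 0.09 on the log2 scale (interaction −1.70), and that of CNN2, with a positive estimate in A549 and a negative one in H1792, differed by −0.58 ± 0.09. The TPM1 effect was less negative in H1792, by 0.36 ± 0.09. These were the 2 members called lower and the 1 called higher, where 9.17% and 5.37% of the 14769 genes tested were. Over all genes 793 were called higher and 1355 lower, and with the size factors of DESeq2 these were 1012 and 1033; the median interaction was −0.10 and −0.02. The TPM1 call was the least stable, lost without any 1 of 9 libraries (0.34 to 0.39), namely A549 DMSO replicate 4, A549 AMG900 replicates 2, 3 and 4, H1792 DMSO replicates 1 and 3, and all 3 H1792 AMG900 replicates. The TAGLN interaction, 0.71 ± 0.20, was not called, but it was with DESeq2 (0.79), its size factors (0.79), total counts (0.81), no filter (0.73) and GC correction (0.87). It was also called without A549 DMSO replicate 1 (0.75), H1792 DMSO replicate 1 (0.87) or H1792 AMG900 replicate 3 (0.86). For CNN1 no difference of effect is given, since A549 held 0 to 6 counts per library. TGFB1I1 (0.30 ± 0.12) and MYL9 (0.80 ± 0.35) were not called, nor were CALD1 (−0.21 ± 0.11), ACTG2 (0.19 ± 0.77) and TPM2 (−0.03 ± 0.23). With GC correction TGFB1I1 was called at 0.51.

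**Figure D3:**
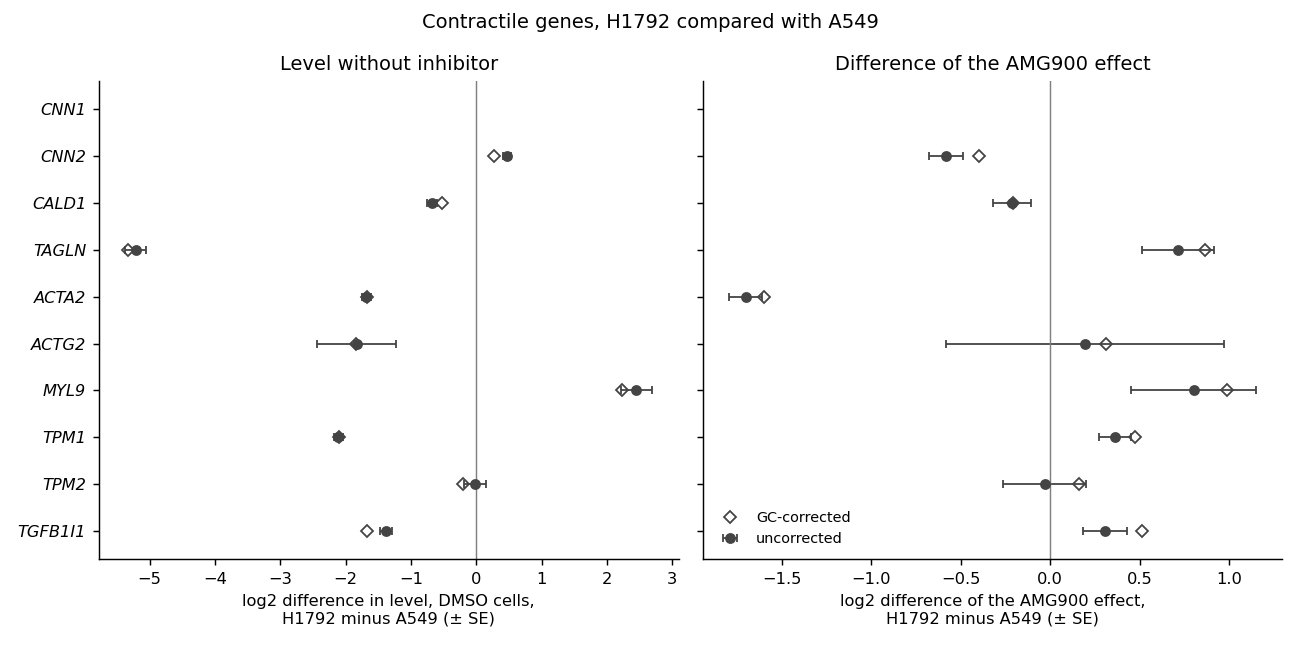
Contractile genes in H1792 compared with A549, as log2 differences ± SE (circles) and after GC correction (diamonds): the level in DMSO cells on the left, the AMG900 effect on the right. TAGLN has the lowest relative level in H1792 (−5.22), and ACTA2 has the most negative difference of effect (−1.70). CNN1 is left out, since A549 held 0 to 6 counts of it per library.

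Likeness between members was measured over both lines together. With log2 CPM centred on the mean of each line, over all 14 libraries, CNN1 followed TAGLN (Pearson's r = 0.76) and TGFB1I1 (0.65) and had r = 0.03 with ACTA2. ACTA2 ran opposite to TPM1 (−0.93), and CALD1 opposite to TAGLN (−0.86) and TGFB1I1 (−0.83). These 14 points share treatment, library and base composition, and the 8 A549 points of CNN1 rest on 0 to 6 counts each, so the values are a description. Among 8666 genes outside the list, those with the pattern most like that of CNN1 were KAT2A (0.89), CINP (0.87), DENND3 (0.87), MUTYH (0.86) and PHB (0.86).

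The rest of the pathway was read from 5 lists holding 51 genes outside the 10, likewise written with earlier results of these data known. Fold changes of these genes are therefore a description too, and are given without p-values. The counts over all 51 come first, then 4 of the lists. SRF itself was lower in both lines, and SRF targets of the actin cytoskeleton moved both ways. In A549, 44 of the 51 were tested, with 5 called higher and 17 lower and a median log2 fold change of −0.17. In H1792, 46 were tested, with 8 called higher and 15 lower and a median of −0.12. The percentages of all genes called in these comparisons are those given above, 17.2% higher and 17.8% lower in A549 and 16.2% and 18.8% in H1792. With GC correction the counts were 3 higher and 21 lower in A549, and 4 higher and 23 lower in H1792. Calls over all genes moved too. In A549 they were 2265 higher and 2340 lower of 13174, and 1876 and 2338 of 12768 with the correction. In H1792 they were 2439 and 2827 of 15017, and 2177 and 3257 of 14373 with it. Without A549 DMSO replicate 1, 9 were called higher and 20 lower in A549, where 2876 and 2978 of all 13452 genes were. Without H1792 AMG900 replicate 2, 5 were called higher in H1792, where 1464 of all 15381 genes were.

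Of SRF and its cofactors, 7 genes, 2 of 7 tested in A549 and 1 of 6 in H1792 were called, each of them lower. SRF stood at −0.35 ± 0.08 in A549 on the log2 scale and at −0.21 ± 0.06 in H1792, where it only just passed the threshold. MKL2, also known as MRTF-B, stood at 12.5 to 24.3 CPM in A549 with DMSO and 5.86 to 10.1 CPM with AMG900 (−1.19 ± 0.20). In H1792 it was not called (−0.27 ± 0.16). MKL1 was called in neither line (0.17 ± 0.07 and 0.14 ± 0.06). MYOCD, myocardin, had 10 to 41 counts per library in A549 (−1.23 ± 0.37, not called) and 0 to 5 counts in H1792.

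Paralogs of the members, 11 genes, had 3 called, each lower, of 9 tested in A549, and 4 lower and 1 higher of 9 in H1792. The abundant cytoplasmic actins ACTB and ACTG1 had log2 fold changes of 0.02 ± 0.05 and −0.02 ± 0.05 in A549 and of −0.27 ± 0.04 and −0.28 ± 0.05 in H1792, called lower only in the second. For both, the interaction was called as well (−0.37 and −0.33). Skeletal alpha-actin ACTA1 was lower in H1792 (−1.02 ± 0.17), where ACTA2 was not called. The calponin CNN3 was lower in both lines (−0.46 ± 0.08 and −0.62 ± 0.06), and the tropomyosins TPM3 (−0.60 ± 0.07) and TPM4 (−0.43 ± 0.07) were lower in A549 along with TPM1. TAGLN2 was higher in H1792 (0.32 ± 0.05).

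Other SRF targets of the actin cytoskeleton, 12 genes, all tested, had 2 called higher and 3 lower in A549, and 5 higher and 3 lower in H1792. PDLIM7 and FHL2 were higher in both lines. PDLIM7 rose by 0.57 ± 0.08 and 0.57 ± 0.05 on the log2 scale, and FHL2 by 0.84 ± 0.09 and 0.25 ± 0.06. Vinculin VCL, which ties actin to adhesions, fell in both, from 243 to 301 CPM with DMSO to 125 to 145 with AMG900 in A549 (−1.06 ± 0.08), and from 128 to 141 CPM to 80.9 to 82.6 in H1792 (−0.73 ± 0.06). CTGF, a secreted matricellular factor, also fell in both (−0.51 ± 0.13 and −1.15 ± 0.06).

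Other smooth muscle contractile genes, 9 in all, were mostly near the limit of detection. In A549, 4 were tested and 2 called lower, SYNM (−0.72 ± 0.08) and the myosin light chain kinase MYLK (−0.50 ± 0.12). In H1792, 7 were tested, with 1 called higher and 1, SYNM, lower (−0.62 ± 0.07), while MYLK was not called (−0.16 ± 0.31). The gene called higher was DES, desmin, the intermediate filament protein of muscle. It had 5, 3 and 3 counts in the H1792 DMSO libraries and 100, 53 and 49 in the AMG900 libraries, and the groups did not overlap. DES passed the low-count filter through its AMG900 libraries, and its fitted log2 fold change of 3.90 ± 0.38 is taken against 11 counts in all, so it is a description. In A549, DES had 0 to 5 counts per library and was not tested. MYH11, smooth muscle myosin, had 34 to 77 counts with DMSO and 23 to 28 with AMG900 in H1792 (−1.09 ± 0.33, not called). In A549 it had 1 to 5 counts per library with DMSO and 7 to 16 with AMG900. These were 0.235 to 0.455 against 0.661 to 0.913 CPM, without overlap, and MYH11 was not tested there. Its interaction was called (−2.43 ± 0.55) but rests on those low A549 counts, so it is a description. Within the 5 smooth muscle markers, the summed level in A549 was 6.05 to 9.92 CPM with DMSO and 3.68 to 5.61 with AMG900, and in H1792 it was 2.28 to 2.42 and 3.03 to 3.15. The sums mix directions. In A549 the mean CPM fell for SYNPO2 (3.96 to 2.36) and MYOCD (2.64 to 1.06). It rose there for MYH11 (0.325 to 0.803), LMOD1 (0.135 to 0.345) and DES (0.0297 to 0.147). In H1792 it rose for DES (0.0688 to 1.06) and LMOD1 (0.406 to 0.750). It fell there for MYH11 (0.891 to 0.426), SYNPO2 (0.920 to 0.848) and MYOCD (0.0460 to 0). The 5 fibroblast markers (DCN, LUM, PDGFRB, PDGFRA, THY1), all detected, summed to 5.88 to 9.63 CPM with DMSO and 10.8 to 13.0 CPM with AMG900 in A549. In H1792 they summed to 54.7 to 60.5 and 43.8 to 46.7 CPM. Most of the A549 sum was THY1 (mean 6.67 CPM with DMSO and 10.6 with AMG900). The other markers had at most 11 counts in an A549 library. In H1792, THY1 had 0 to 28 counts per library. DCN, LUM and PDGFRA there had lower means with AMG900 (21.8, 1.82 and 8.03 CPM) than with DMSO (29.8, 4.21 and 12.1). The PDGFRB mean was higher with AMG900 (13.2 against 10.8 CPM), and its libraries overlapped. What part these markers have in the contractile genes' levels was not tested. In bulk RNA, a change in the number of cells expressing a gene and a change of RNA per cell cannot be told apart.

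**Figure D4:**
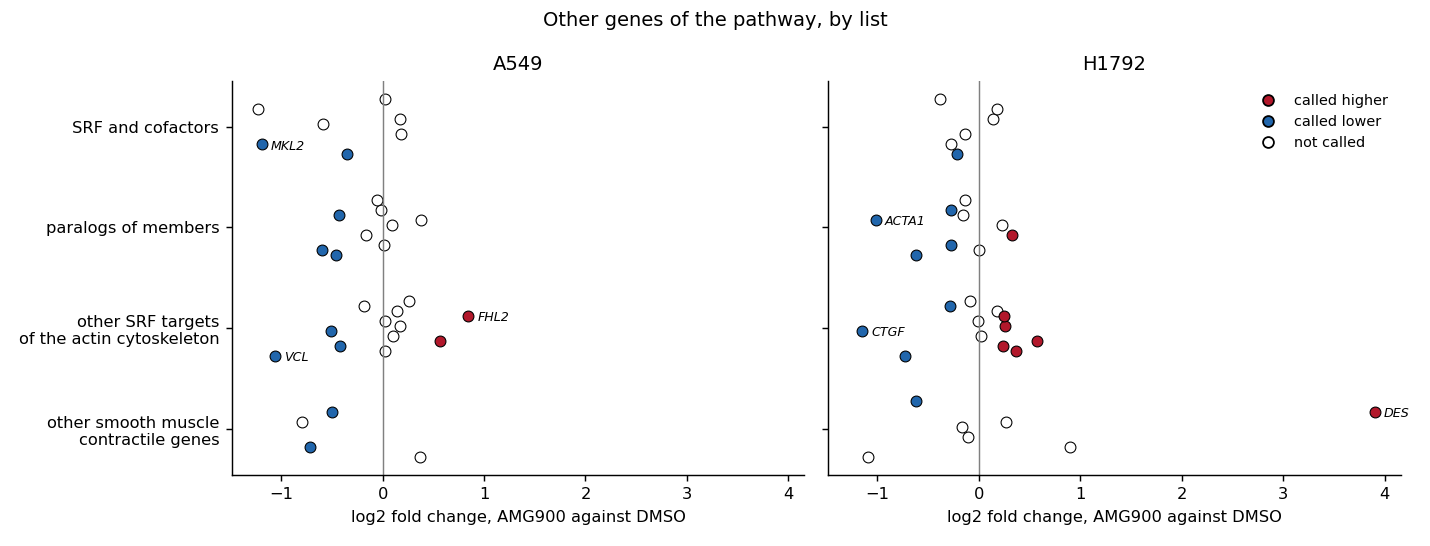
Log2 fold change, AMG900 against DMSO, of the tested genes in 4 lists around SRF (rows; the vertical place within a row only separates points) in A549 and H1792; red and blue are called higher and lower at an FDR of 0.01, and called genes beyond 0.8 are named. DES in H1792 is drawn at 3.90, a value taken against 3 to 5 counts per DMSO library, and VCL lies below 0 in both lines (−1.06 in A549 and −0.73 in H1792).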

How the data were processed

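RNA was purified from cultured A549 and H1792 cells and sequenced on a NextSeq instrument. The authors deposited raw counts, the number of reads per gene symbol and library, in 1 table per line. The submitters' processing notes name STAR, HTSeq, hg19 and GRCh37, and annotation and strand setting are not given in the sources used here. The 28 date-named entries of the H1792 table (0.101% to 0.117% of counts) were left out. Counts were analysed in R 4.3.3 with edgeR 4.0.16 (filterByExpr, TMM, quasi-likelihood test, Benjamini-Hochberg over all genes tested, FDR 0.01), within each line and, for comparisons between lines, over 14 libraries. The study's methods name DESeq2, which was run as an alternative. CPM were scaled within each line by TMM, so levels printed for different lines are not on 1 scale, and differences between lines come from the joint fit. The biological coefficient of variation was 12.8% in A549 and 9.60% in H1792. Members and lists were chosen with earlier results of these data known. All members are named, and other genes by list and call, except that 1 gene and 1 list are not reported here. Likeness to CNN1 used genes outside the list with a mean of at least 5 CPM in each line. GC content and positions came from GENCODE on GRCh37, matched by symbol for 23591 genes, and were used with a spline of 5 degrees of freedom. Alternatives were DESeq2, its size factors, scaling by total counts, no low-count filter, a replicate block, an FDR of 0.05, GC correction and leaving out each library. The fits were tested on simulated data.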

Additional observations from a re-analysis of the deposited data

Results flagged for a closer look

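A single library stood apart within its group in 3 of the 20 A549 gene groups of 4 libraries examined. The rule flags about 1 in 20 only if groups are independent and normally spread. These groups share libraries and some hold few counts, so no excess is read from the 3. CNN2 in A549 AMG900 reached 313 CPM in replicate 4. In A549 DMSO replicate 1, the smallest library, ACTG2 reached 3.05 CPM, which rests on 13 counts, and TPM2 reached 1427 CPM. Without that library the log2 fold change of TPM2 in A549 went from −0.08 to 0.17 and that of ACTG2 from 0.43 to 0.88, and neither was called.

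The interaction of line and AMG900, H1792 minus A549, was called for 3 members, at −1.70 for ACTA2, −0.58 for CNN2 and 0.36 for TPM1. The TPM1 call was lost without any 1 of 9 libraries (0.34 to 0.39) and under an alternative model given below. Since the genes were picked with these effects known, the differences are a description.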

How the results depend on the processing

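Of the 339 alternative values of members called in a comparison, 319 kept their direction and side of the threshold, 19 lost the call and 1, CALD1 in A549 with GC correction (0.034), turned sign. Part of the 319 could hardly change. The FDR of 0.05 reuses the main fit, so no call can be lost there. Leaving out an AMG900 library takes none from the DMSO comparison of the lines. Of 336 values not called, 284 stayed so, 23 became called and 29 turned sign. With GC correction the members called higher in H1792 fell to 2, and the A549 log2 fold changes of CNN2 (−0.13), TAGLN (−0.047), MYL9 (−0.21) and TGFB1I1 (−0.27) turned sign. An FDR of 0.05 gave 2 members higher in A549. Members with a higher interaction numbered 3 with DESeq2, GC correction or an FDR of 0.05, 2 with DESeq2 size factors, total counts or no filter, and 0 with the replicate block, where the TPM1 call was lost (0.36). CNN1 is among the 3 with DESeq2 and at an FDR of 0.05, where it rests on 0 to 6 counts per A549 library. The replicate numbers did not pair the libraries, with correlations of same-numbered libraries between −0.06 and 0.04, and the block changed no other count of members; it was not run for the DMSO comparison of the lines, where it cannot be estimated. Leaving out 1 library gave 1 to 2 members lower in A549 and 0 to 2 with a higher interaction. Among the other pathway genes, those called higher in A549 numbered 8 at an FDR of 0.05, 3 with GC correction and 4 to 9 with 1 library left out. In H1792 they numbered 5 with total counts, 4 with GC correction and 5 to 10 with 1 library left out, and those called lower were 23 with GC correction. Calls over all genes changed under these settings as well.

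Low or variable members turned sign without being called. With 1 library left out, ACTG2 ranged from −0.22 to 0.88 in A549 and from −0.26 to 0.86 in the interaction, MYL9 from −0.020 to 0.40 in A549, and TPM2 from −0.17 to 0.17 in A549, −0.16 to 0.13 in H1792, −0.27 to 0.14 in the interaction and −0.14 to 0.22 between the lines. The TPM2 interaction was 0.056 with DESeq2, 0.052 with its size factors, 0.061 with total counts and 0.16 with GC correction, and the TPM2 difference between the lines was 0.035 without a filter. No cause of these shifts was tested, GC content included. The GC correction shows only how the estimates change when it is applied. CNN1 in A549, with at most 6 counts per library, could not be assessed at this depth.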
